A study of Mus musculus with 12 samples.

Results

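Alternative (M2) activation of macrophages is driven by IL-4 and IL-13. Both cytokines signal through receptors that contain the IL-4 receptor alpha chain. This chain pairs either with the common gamma chain or, to form the receptor for IL-13, with the IL-13 receptor alpha 1 chain. The receptor chains carry JAK kinases, which phosphorylate the transcription factor STAT6, and STAT6 then induces genes such as those of PPARγ, IRF4 and the H3K27 demethylase KDM6B that sustain the M2 programme. To determine whether this machinery was expressed in macrophages treated with miRNA-loaded extracellular vesicles (EVs), and whether it shifted, 10 named genes were followed out of 35865 genes in the files. They were the receptor chains Il4ra, Il13ra1 and Il2rg, the kinases Jak1 and Jak3, the signal transducer Stat6, and the regulators Pparg, Klf4, Irf4 and Kdm6b. Of these, 9 passed the filter on low counts (10 counts or more in 3 or more of the libraries, which 13906 genes passed), and Pparg did not.

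The cells were RAW 264.7, a mouse macrophage line, kept in medium whose serum had been freed of EVs. All 12 samples were exposed for 48 h to 3 µg protein/ml of EVs made by MS-1, an endothelial line from mouse. Before use the EVs were electroporated with an miRNA mimic, which defines the groups. These were ctrl-EVs (a control mimic, cel-miR-67 in the study's methods), miR-222-3p-EVs, miR-183-5p-EVs and miR-142-5p-EVs, and each had 3 libraries numbered 1 to 3 in the titles. The last 3 groups together are called miR-EVs. There were no cells without EVs or with added IL-4, and the files hold mRNA estimates, not receptor protein or phosphorylation of STAT6. Nothing in the labels says that the libraries of a group came from separate cultures, so p-values measure the spread between libraries, which may be technical.

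Each library held 16294611 to 22974853 estimated counts. Macrophage markers were present throughout (10 of 10 tested, summed level 1576 to 2191 TPM, a transcript abundance scaled for length and to the same sum in each library). Of 10 endothelial markers, 5 were tested, 3 averaged at least 1 TPM and 1 was listed at 0 in every library. Their summed level was 15.1 to 34.3 TPM with no separation of groups (16.7 to 30.5 with ctrl-EVs). Libraries sharing a number deviated together from their group means (r between 0.409 and 0.797 for each of 18 pairs, across genes, which are not independent replicates). Each comparison was therefore also fitted with the number as a block, and the blocked values stand beside those of the model without it.

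The RefSeq mature sequences of the 3 miRNAs whose mimics were delivered are shown because their seeds (nt 2 to 8, in capitals) define the sites at which a 3′ UTR can pair with them. Sequences are from RefSeq (GRCm38.p6), 5′ to 3′, where miR-142-5p is listed as miR-142a-5p (chromosome 11, 87756867 to 87756887, plus strand). The gene of miR-183-5p lies on chromosome 6 (30169711 to 30169732, minus strand) and that of miR-222-3p on chromosome X (19146901 to 19146923, minus strand). The 3 seeds differ from each other. These are the RefSeq forms and not the mimics' own strands, of which that for miR-222-3p is listed as shorter at its 3′ end.
miR-142-5p: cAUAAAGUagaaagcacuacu
miR-183-5p: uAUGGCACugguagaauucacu
miR-222-3p: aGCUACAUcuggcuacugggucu

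Complementary 7-nt sites were few in the 3′ UTRs of the 10 genes. This set is too small to tell the counts apart from the shares over all tested genes. Among coding transcripts with an annotated stop codon and 3′ UTR, the most abundant one per gene by TPM was searched in its 3′ UTR on the transcript strand for ACTTTAT (miR-142-5p), GTGCCAT (miR-183-5p) and ATGTAGC (miR-222-3p). In this order the sites occurred in 13.8%, 8.93% and 9.41% of 13034 tested genes with such a 3′ UTR, whose median length was 908.5 nt. Among the 10 genes, 1 site was found, for miR-183-5p in Irf4, at nt 790 to 796 of a 3′ UTR of 3309 nt. The 3′ UTR of Il4ra (2420 nt in transcript Il4ra-201), that of Il13ra1 (2353 nt) and that of Stat6 (976 nt) held none of these letters. The site is printed with its flanks, the paired bases in capitals.
Irf4 site for miR-183-5p: atttttaaaattctGTGCCATttcc

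STAT6 dimers bind the palindrome TTCNNNNGAA, which reads the same on both strands. It was sought in RefSeq promoter windows (GRCm38.p6, 250 bases before to 50 after a gene's start), where 8.01% of 27025 genes had it. None of the 9 genes of the set with a window had it (Kdm6b was not matched). It was present in 6 of 19 matched genes of a list of 29 M2 readouts, that is, genes used as products of alternative activation. Windows from 2 of them are shown with the motif in capitals, chosen after the search, since both encode classical IL-4 induced secreted proteins. Retnla, the resistin-like protein FIZZ1, has it 145 bases before its start (window chr16:48842359-48842658, plus strand), and Ccl17, a chemokine for T cells, has it 154 bases before its start (window chr8:94810203-94810502, plus strand). Retnla was listed at 0 in every library and Ccl17 reached 1.49 TPM at most. A match describes letters and is no evidence of binding.
Retnla: aatcataaTTCACAAGAAattgctaa
Ccl17: agtgaccaTTCTCTGGAAagccacaa

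All 3 receptor chains and both kinases were expressed in every library, Stat6 had the highest mean of the 10 genes, and Pparg was near 0. Levels are given as TPM, which allows genes to be set side by side. Over the 12 libraries, Stat6 averaged 61.8 ± 18.0 TPM (SD), Jak1 49.1 ± 5.73, Il2rg 48.8 ± 25.4 and Jak3 23.7 ± 6.17 TPM. Kdm6b averaged 20.7 ± 4.58, Il13ra1 10.3 ± 1.07 and Il4ra 9.89 ± 3.13 TPM. At the low end, Irf4 averaged 1.41 ± 0.520, Klf4 0.894 ± 0.335 and Pparg 0.132 ± 0.142 TPM. By mean TPM, Stat6 stood at the 82.2 percentile of tested genes and Il4ra at the 38.7 percentile.

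In this order most neighbours overlapped, and the highest gene changed with the library number: Stat6 in 4 of 4 libraries of number 1, Jak1 in 4 of 4 of number 2 and Il2rg in 4 of 4 of number 3. Only Kdm6b stood above Il13ra1, and Il4ra above Irf4, with no overlap of the 12 values. Stat6 exceeded Jak1 in 8 of 12 libraries, and Il13ra1 exceeded Il4ra in 5 of 12. The common gamma chain Il2rg, which also serves the receptors for IL-2, IL-7, IL-9, IL-15 and IL-21, was above both alpha chains in 12 of 12 libraries, 2.16 to 7.97 times the level of Il13ra1 and 2.91 to 6.82 times that of Il4ra. Jak1 was above Jak3 in 12 of 12, by 1.38 to 2.88 times.

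**Figure D1:**
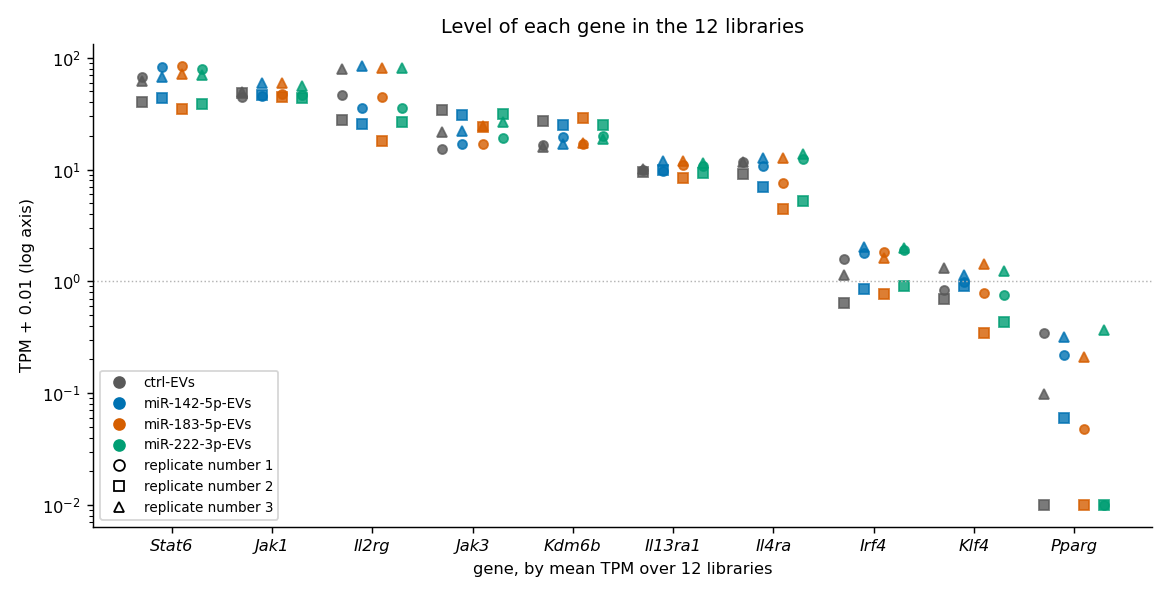
TPM of the 10 genes in the 12 libraries on a log axis (0.01 added so that values of 0 can be drawn), coloured by EV group and shaped by replicate number, with a dotted line near 1 TPM. Stat6 averaged 61.8 TPM and Il4ra 9.89 TPM, Irf4 and Klf4 lay around 1 TPM, Pparg stayed below 1 TPM in 12 of 12 libraries, and the colours overlap within each gene while number 2 (squares) stands apart for several.

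Il4ra encodes the chain that both receptor types share (chromosome 7, 125552120 to 125579474, GRCm38). Its TPM in libraries 1, 2 and 3 was 11.8, 9.12 and 11.7 with ctrl-EVs. It was 10.8, 6.94 and 12.6 in the miR-142-5p-EV group and 7.64, 4.43 and 12.6 in the miR-183-5p-EV group. With miR-222-3p-EVs it was 12.3, 5.24 and 13.6. The groups overlapped, and library 2 was the lowest of each group.

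For tests, estimated counts were divided by size factors and a transcript length offset (normalized counts). On this scale Il4ra was 488.8 ± 52.8 with ctrl-EVs and 350.8 ± 137 with miR-183-5p-EVs (SD, 3 libraries each). This is a log2 fold change of −0.48 ± 0.35 (SE, DESeq2 adjusted p = 0.999983), and with the replicate block of −0.54 ± 0.18 (DESeq2 unadjusted p = 0.00246, adjusted p = 0.132), which missed the threshold of 0.05. The blocked 95% interval ran from −0.88 to −0.19, and without number 2 the blocked value was −0.34. In the blocked fit of all 12 libraries, an unadjusted p under 0.05 was reached by 10.1% of all genes. With the block but without the length offset, the value was smaller, −0.35 ± 0.13 (DESeq2 unadjusted p = 0.00973, no adjusted p given). The size of the value thus depended on the offset, which is built from the estimated transcript shares. Without ctrl-EVs library 3 the blocked value with the offset was −0.68 with a DESeq2 adjusted p of 0.0461. This was the single setting in which a gene of the set was called against ctrl-EVs, and 148 of 13906 tested genes were called in it. In pairs of equal number, the normalized count of Il4ra was lower than with ctrl-EVs in 3 of 3 with miR-183-5p-EVs, as were 15.3% of all genes, with log2 ratios from −0.91 to −0.08. It was also lower in 3 of 3 with miR-142-5p-EVs (12.4% of all genes) and in 1 of 3 with miR-222-3p-EVs. On TPM the first 2 of these counts were 2 of 3, since number 3 was above its ctrl-EV library there. These comparisons share the same ctrl-EV libraries.

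The other comparisons of Il4ra had smaller values. With the block, miR-222-3p-EVs gave a log2 fold change of −0.19 ± 0.18 and miR-142-5p-EVs one of −0.20 ± 0.18. For all miR-EVs together it was −0.31 ± 0.14 (DESeq2 unadjusted p = 0.033, adjusted p = 0.346, with 10.6% of all genes at an unadjusted p under 0.05).

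Most of the Il4ra signal was assigned to a transcript that is not annotated as coding for the full receptor. Il4ra-205, 3696 nt long and annotated as subject to nonsense-mediated decay, held 62.0% of the gene's TPM on average (49.4% to 85.0%). Il4ra-201, the coding transcript of 5256 nt, held 14.5% (9.74% to 26.7%). In libraries 1, 2 and 3, Il4ra-201 was at 1.28, 1.68 and 2.15 TPM with ctrl-EVs and at 0.749, 1.18 and 1.84 TPM with miR-183-5p-EVs. It was at 1.20, 0.568 and 1.95 TPM with miR-222-3p-EVs and at 1.45, 0.845 and 1.82 TPM with miR-142-5p-EVs. The groups overlapped for this transcript too. Short coding models, Il4ra-203 (434 nt) and Il4ra-202 (491 nt), took 15.2% and 5.52%. The transcripts share exons, so these shares are estimates by Salmon with no error given in the files.

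**Figure D2:**
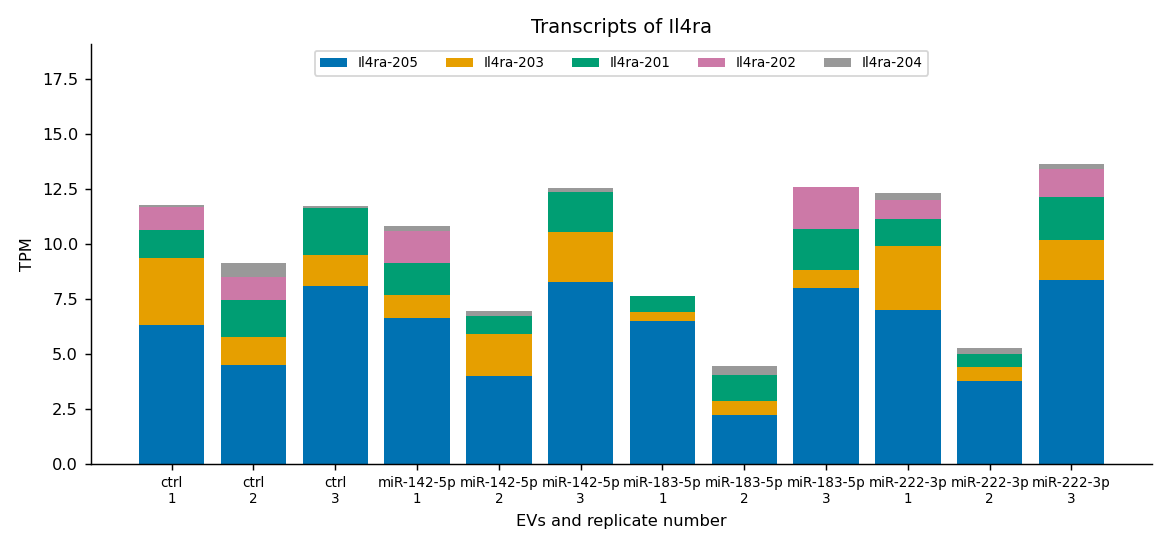
TPM of the 5 annotated Il4ra transcripts, stacked, in each library (EV group and replicate number on the x axis). Il4ra-205 (annotated as subject to nonsense-mediated decay) is the largest segment in 12 of 12 bars, from 49.4% to 85.0% of the gene, and number 2 has the lowest bar of each group.

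Il13ra1, which joins Il4ra to form the receptor for IL-13, had the smallest SD relative to its mean of the 10 genes (chromosome X, 36112110 to 36171259). Libraries 1, 2 and 3 held 9.94, 9.48 and 10.0 TPM with ctrl-EVs. The values were 10.8, 9.36 and 11.3 TPM with miR-222-3p-EVs, 10.9, 8.35 and 11.9 TPM with miR-183-5p-EVs and 9.62, 9.83 and 11.8 TPM with miR-142-5p-EVs. All groups overlapped, and a single annotated transcript held the whole signal. Its log2 fold change with all miR-EVs was 0.04 ± 0.09 (95% interval −0.14 to 0.23).

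Il2rg, the common gamma chain (chromosome X, 101264378 to 101268255), followed the library number far more than the EVs. With ctrl-EVs it was at 46.2, 27.5 and 80.0 TPM in libraries 1, 2 and 3. It was at 35.7, 26.4 and 81.6 TPM with miR-222-3p-EVs, 44.8, 18.1 and 81.1 TPM with miR-183-5p-EVs, and 35.5, 25.7 and 83.5 TPM with miR-142-5p-EVs. Number 3 was the highest and number 2 the lowest in 4 of 4 groups, with no overlap between numbers. Its log2 fold change with all miR-EVs was −0.18 ± 0.45, and with the block −0.19 ± 0.12 (95% interval −0.42 to 0.04). On normalized counts 1 of 9 miR-EV libraries was above the ctrl-EV library of its number, and on TPM 3 of 9 were. With the block but without the length offset, the value was −0.23 ± 0.10 (95% interval −0.43 to −0.03). There DESeq2 gave an unadjusted p of 0.0255 and no adjusted p. In that setting the DESeq2 unadjusted p was 0.0456 for miR-142-5p-EVs (adjusted p = 0.998) and 0.0433 for miR-183-5p-EVs (adjusted p = 0.364). For miR-222-3p-EVs it was 0.150.

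Jak1, the kinase bound by Il4ra (chromosome 4, 101152367 to 101265282), varied little. Its TPM with ctrl-EVs was 44.4, 48.0 and 49.1 in libraries 1, 2 and 3. The miR-EV values were 46.7, 43.4 and 56.4 TPM with miR-222-3p-EVs, 47.0, 44.5 and 59.2 TPM with miR-183-5p-EVs and 45.3, 46.4 and 59.0 TPM with miR-142-5p-EVs, so library 3 was the highest of each group. The blocked log2 fold change with all miR-EVs was 0.03 ± 0.06 (95% interval −0.09 to 0.16).

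Jak3, the kinase bound by the common gamma chain (chromosome 8, 71676296 to 71690575), was highest in number 2 except with miR-183-5p-EVs on the TPM scale. In libraries 1, 2 and 3 it stood at 15.4, 34.3 and 21.9 TPM with ctrl-EVs. It stood at 19.3, 31.4 and 26.6 TPM with miR-222-3p-EVs, 16.9, 24.0 and 24.4 TPM with miR-183-5p-EVs, and 17.0, 30.9 and 22.0 TPM with miR-142-5p-EVs. The groups overlapped, and the blocked log2 fold change with all miR-EVs was −0.01 ± 0.09. Its coding transcripts also shifted with the number: Jak3-201 held 2.44% to 14.3% of the gene in number 2 and 25.6% to 45.8% in the other libraries.

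Stat6, the transcription factor that carries the signal to the nucleus (chromosome 10, 127642986 to 127660957), was lowest in number 2 in 4 of 4 groups. Its TPM in libraries 1, 2 and 3 was 67.9, 39.9 and 61.5 with ctrl-EVs. It was 79.6, 38.4 and 70.1 TPM with miR-222-3p-EVs, 84.5, 34.9 and 71.4 TPM with miR-183-5p-EVs, and 82.4, 44.1 and 67.6 TPM with miR-142-5p-EVs. The groups overlapped. Under the block miR-142-5p-EVs gave a log2 fold change of 0.13 ± 0.10, and both other miR-EV groups one of 0.09 ± 0.10. The 95% interval for all miR-EVs ran from −0.05 to 0.26. The coding transcript Stat6-201 held 81.2% of its TPM (68.8% to 92.2%), and retained-intron transcripts most of the rest. After the mean of each number was subtracted, the genes whose log2 normalized counts followed Stat6 most closely over the 12 libraries were Ntn5 (r = 0.963) and Ptgs1, which encodes cyclooxygenase 1 (r = 0.923). They were picked as the highest of 10857 genes.

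The regulators that act with or downstream of STAT6 differed widely in level. Kdm6b, which removes the repressive mark H3K27me3 (chromosome 11, 69398508 to 69413675), was at 16.7, 27.4 and 15.8 TPM in libraries 1, 2 and 3 with ctrl-EVs. It was at 20.0, 24.9 and 18.7 TPM with miR-222-3p-EVs, 16.9, 28.8 and 17.4 TPM with miR-183-5p-EVs, and 19.5, 24.9 and 16.9 TPM with miR-142-5p-EVs. Number 2 was the highest of each group. The blocked log2 fold change with all miR-EVs was 0.05 ± 0.09 (95% interval −0.13 to 0.23).

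Irf4, a transcription factor of the M2 programme (chromosome 13, 30749226 to 30766976), was the gene with the most even direction. Its TPM in libraries 1, 2 and 3 was 1.58, 0.634 and 1.14 with ctrl-EVs. It was 1.91, 0.906 and 1.96 TPM with miR-222-3p-EVs, 1.83, 0.764 and 1.61 TPM with miR-183-5p-EVs, and 1.80, 0.844 and 2.02 TPM with miR-142-5p-EVs. The groups overlapped, since number 2 was low in each, but 9 of 9 miR-EV libraries were above the ctrl-EV library of their number, as were 3.67% of all genes. That share counts only genes higher in 9 of 9, and not those lower in 9 of 9. The 9 pairs share 3 ctrl-EV libraries.

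On the normalized scale Irf4 was 76.3 ± 29.9 with ctrl-EVs (n = 3) and 99.6 ± 28.1 over the 9 miR-EV libraries (SD). The log2 fold change with all miR-EVs was 0.38 ± 0.35, and with the block 0.40 ± 0.19 (95% interval 0.02 to 0.77, DESeq2 unadjusted p = 0.0377, adjusted p = 0.362), which missed the threshold. With the block it was 0.42 ± 0.23 with miR-142-5p-EVs and 0.29 ± 0.23 with miR-183-5p-EVs. The miR-222-3p-EV value was 0.48 ± 0.23 (DESeq2 unadjusted p = 0.0369, with 6.53% of all genes under 0.05). In this fit DESeq2 gave no adjusted p for Irf4, Il4ra, Il13ra1 and Klf4. The miRNA with a site in the Irf4 3′ UTR, miR-183-5p, was the one with the smallest of the 3 values, and the difference between the values was not tested.

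Klf4, which cooperates with STAT6 (chromosome 4, 55527143 to 55532466), was low, at 15.7 to 53.6 normalized counts. It was at 0.824, 0.691 and 1.30 TPM in libraries 1, 2 and 3 with ctrl-EVs. The other groups had 0.742, 0.424 and 1.23 TPM (miR-222-3p-EVs), 0.768, 0.338 and 1.43 TPM (miR-183-5p-EVs) and 0.973, 0.899 and 1.12 TPM (miR-142-5p-EVs). In pairs of equal number its normalized count was lower in 3 of 3 with miR-222-3p-EVs (12.6% of all genes) and in 3 of 3 with miR-183-5p-EVs, but on TPM the latter was 2 of 3. The blocked log2 fold change with all miR-EVs was −0.16 ± 0.32 (95% interval −0.78 to 0.46), which includes values as large as those of Il4ra and Irf4.

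Pparg, the nuclear receptor of fatty acids that IL-4 induces in macrophages (chromosome 6, 115360951 to 115490399), was listed at 0 in 4 of 12 libraries and at 0.359 TPM at most. In libraries 1, 2 and 3 it was at 0.335, 0 and 0.0882 TPM with ctrl-EVs and at 0, 0 and 0.359 TPM with miR-222-3p-EVs. It was at 0.0376, 0 and 0.200 TPM with miR-183-5p-EVs and at 0.207, 0.0493 and 0.309 TPM with miR-142-5p-EVs. No comparison was made at this level. The related receptor gene Ppard, for comparison, averaged 24.8 TPM, and Rxrb and Ncor1, which encode a dimer partner and a corepressor and were the most abundant of 14 nuclear receptor partners, averaged 102.1 and 162.9 TPM.

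Across the set, no gene passed an adjusted p of 0.05 in any comparison with ctrl-EVs. The count was 0 of 9 for miR-222-3p-EVs (0% of all tested genes were called), 0 of 9 for miR-183-5p-EVs (0%), 0 of 9 for miR-142-5p-EVs (0.00719%) and 0 of 9 for all miR-EVs (0%). In a likelihood ratio test among the 4 groups it was 0 of 9 (0.00719%). In DESeq2 0 of the 9 had an unadjusted p under 0.05 in these fits. In edgeR 0 of 9 were called in each, as were 0 of all 13906 tested genes. The median absolute log2 fold change of the 9 genes was 0.16 with miR-183-5p-EVs (0.14 over all tested genes), 0.07 with miR-142-5p-EVs (0.12) and 0.11 in the miR-222-3p-EV comparison (0.12).

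With the replicate block the counts were again 0 of 9. DESeq2 gave an adjusted p for 9 of the 9 with miR-142-5p-EVs, for 8 with miR-183-5p-EVs and for 8 with all miR-EVs (not Klf4), but for only 5 in the miR-222-3p-EV fit, and a gene without one is not called. In these blocked DESeq2 fits an unadjusted p under 0.05 was reached by 2 of the 9 with all miR-EVs (Il4ra and Irf4). It was reached by 1 with miR-183-5p-EVs (Il4ra), by 1 in the miR-222-3p-EV comparison (Irf4), and by 0 with miR-142-5p-EVs. These counts are from fits with the length offset. Without the offset Il2rg also reached it, as given above, and Irf4 did with miR-142-5p-EVs (DESeq2 unadjusted p = 0.0464). In edgeR with the block 0 of 9 were called in each comparison, as were 0 of all 13906 tested genes. Over all tested genes DESeq2 with the block gave 0.0647% called for miR-222-3p-EVs, 0.41% for miR-183-5p-EVs, 0.0575% for miR-142-5p-EVs, 0.626% for all miR-EVs and 0.0863% among the 4 groups. The lowest blocked adjusted p among genes that had one was 0.854 for miR-222-3p-EVs (Il2rg, of 5 genes), 0.132 for miR-183-5p-EVs (Il4ra) and 0.851 for miR-142-5p-EVs (Irf4) in DESeq2. Leaving out the 4 libraries of number 2 left 0 of 9 called in each comparison, with and without the block.

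**Figure D3:**
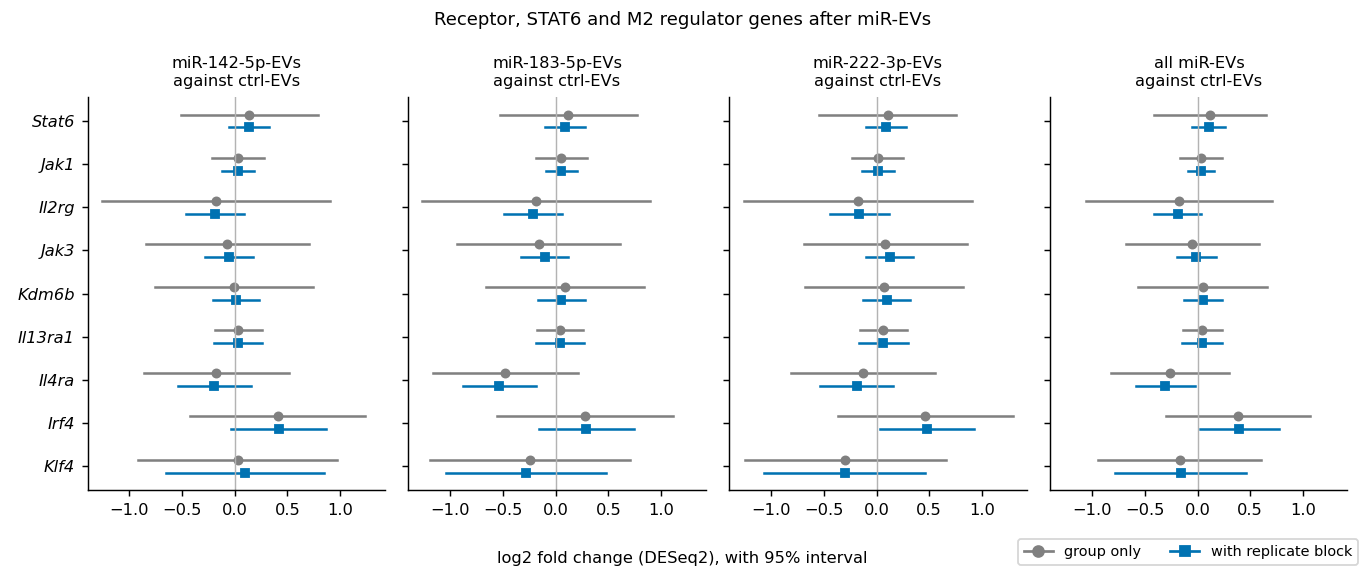
Log2 fold change of the 9 tested genes against ctrl-EVs (x axis, with 95% intervals) in 4 comparisons, without (grey circles) and with (blue squares) the replicate block. The blocked intervals are narrower, except for Il13ra1, where they are slightly wider. That of Il4ra with miR-183-5p-EVs runs from −0.88 to −0.19, that of Irf4 with all miR-EVs from 0.02 to 0.77, and none had an adjusted p under 0.05.

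The same genes varied strongly with the replicate number. In a likelihood ratio test of number beside group, 8 of 9 were called, as were 69.4% of all tested genes, so the share is close to the background. The receptor chains Il2rg and Il4ra were lower in number 2 than in the mean of numbers 1 and 3, by log2 values of −1.02 ± 0.11 and −0.66 ± 0.13. Stat6 differed by −0.67 ± 0.07 and Irf4 by −0.90 ± 0.18. Jak3 and Kdm6b went the other way, by 0.80 ± 0.09 and 0.81 ± 0.08. Jak1 passed the test (DESeq2 adjusted p = 0.00907) with a difference of 0.07 ± 0.06, its number 1 being the lowest, at 2941 ± 92.0 normalized counts beside 3315 ± 81.2 and 3379 ± 117 (SD, n = 4). Klf4 differed by −0.63 ± 0.30 (DESeq2 adjusted p = 0.034). Its call was lost in 10 of 12 fits that left out 1 library and that of Jak1 in 5 of 12. Il13ra1 did not pass (0.00 ± 0.09, DESeq2 adjusted p = 0.925). What a number stands for is not given in the labels.

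**Figure D4:**
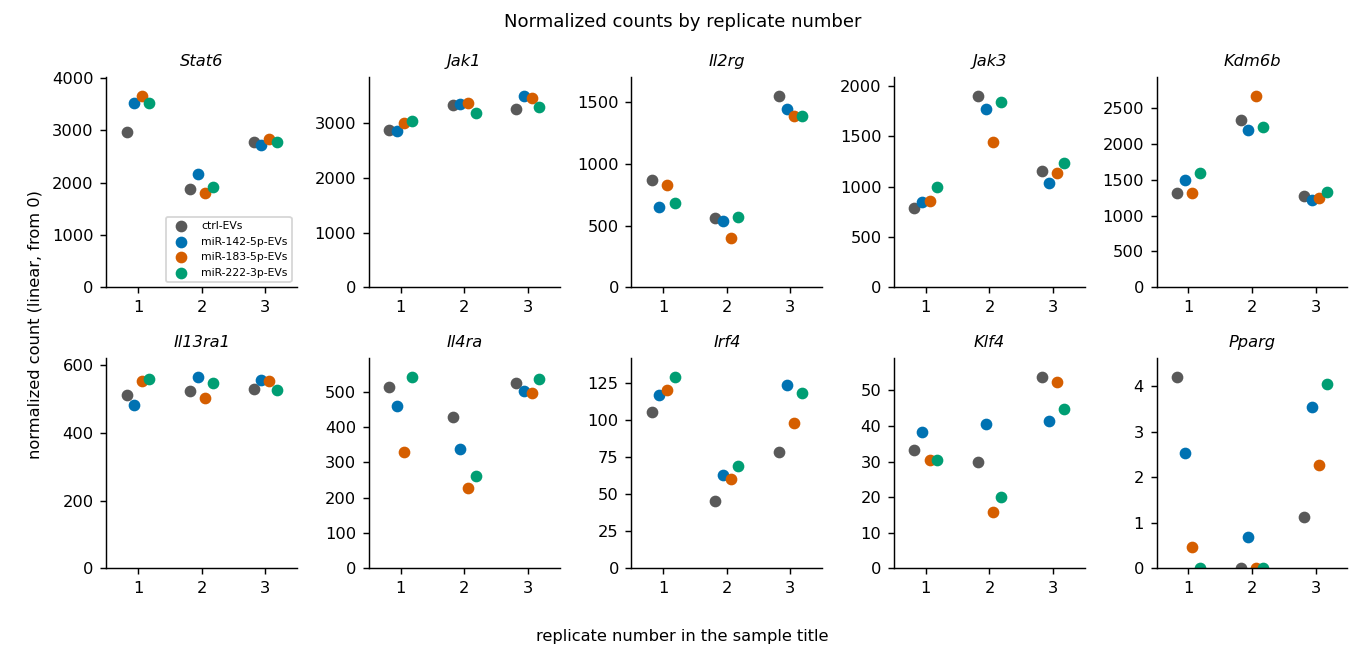
Normalized counts of the 10 genes (y axis from 0, own scale per gene) by replicate number, coloured by EV group. Il2rg is highest in number 3, Jak3 and Kdm6b are highest in number 2, Stat6 and Irf4 are lowest there, and Il13ra1 is level.

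The wider pathway also held no called gene. Of 147 genes in 12 lists around the set, 108 were tested and 0 were called in any comparison with ctrl-EVs, with or without the block, although in the blocked DESeq2 fits an adjusted p was given to only 86 of them for all miR-EVs, to 83 in the miR-183-5p-EV fit and to 63 in the miR-222-3p-EV fit. In the blocked DESeq2 fit with all miR-EVs, the lists differed in how many genes had an unadjusted p under 0.05. The most were 4 of 11 tested readouts of classical (M1) activation and 4 of 14 tested genes of the KLF and IRF families, beside 10.6% of all genes. The lists were chosen with results of these data known. Among the ligands and the decoy receptor, Il4 itself was listed at 3.06 to 6.52 TPM, whereas Il13 and Il13ra2 averaged 0.0683 and 0.147 TPM. Jak2 and Tyk2, kinases that the receptor with Il13ra1 uses beside Jak1, averaged 28.7 and 36.5 TPM.

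Other receptors of the common gamma chain were low except Il15ra, at 19.6 TPM, and Il21r, at 5.56 TPM. Of the other STAT genes, Stat3 averaged 48.1 TPM, below the mean of Stat6. Among SOCS genes, whose products restrain JAK-STAT signalling, Socs3 and Socs5 averaged 12.8 and 12.6 TPM. Of 10 genes for H3K27 methylation, 10 were tested, with Rbbp7 at 185.4 and Eed at 103.98 TPM. Of 12 PPARγ targets 8 were tested, with Acadl at 99.3 and Fabp5 at 53.3 TPM, and their control by PPARγ or other factors was not tested. These genes are the highest by the mean over 12 libraries, and which gene came second in the SOCS, H3K27 and PPARγ lists differed between library numbers.

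The readouts of alternative activation were mostly low in ctrl-EV and miR-EV libraries alike. Of 29 listed, 28 were matched, 14 were tested and 9 averaged at least 1 TPM. Chil4, Retnla, Cd209e and Ear2 were listed at 0 in every library. Arg1, the arginase that marks M2 macrophages, averaged 0.578 TPM (0 to 1.55) and Mrc1, the mannose receptor, 0.0412 TPM (0 to 0.0967), both named after their values were seen. The highest were Ptgs1 at 214.1 TPM, whose blocked log2 fold change with all miR-EVs was 0.18 ± 0.08 (DESeq2 adjusted p = 0.316), and Tgm2, a transglutaminase, at 27.8 TPM, with −0.29 ± 0.11 (DESeq2 adjusted p = 0.18). The summed level of the readouts was 207 to 292 TPM with ctrl-EVs, 235 to 344 TPM with miR-222-3p-EVs, 235 to 352 TPM with miR-183-5p-EVs and 226 to 358 TPM with miR-142-5p-EVs, so the groups overlapped. With Ptgs1 alone at a mean of 214.1 TPM, these sums mostly reflect that gene.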

How the data were processed

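Polyadenylated RNA was sequenced from 12 libraries, which fall into 4 groups of 3 by their titles. The authors prepared stranded mRNA libraries and assigned read pairs to Ensembl mouse transcripts with Salmon. The deposited files hold, per transcript, estimated counts (expected counts, not normalized between libraries), TPM values that the authors' run of Salmon scaled to the same sum per library, and lengths. The submitters' processing notes name GRCh38, a human build, although the identifiers are of mouse, and the methods and files differ on the Ensembl release. Whether the strand was used is not given in the sources used here. Transcripts were matched by identifier to GENCODE vM21 (GRCm38), 116622 of 118783 (98.2%), and the others held at most 0.707% of a library's counts.

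The estimated counts were added up per gene, then rounded, and the TPM-weighted transcript length entered DESeq2 1.42.0 (R 4.3.3) as an offset, following the study's tximport step, with no block as none is stated there. The 13906 genes reaching 10 counts in 3 or more libraries were all fitted in 1 model of 4 groups with two-sided Wald tests. P-values were Benjamini-Hochberg adjusted, with a threshold of 0.05. DESeq2 adjusted over the genes left by its default filter on mean count in each comparison, and genes below that filter got no adjusted p. The number was tested by likelihood ratio in a model with group. Alternatives were the replicate block, edgeR 4.0.16 (quasi-likelihood, TMM) without and with it, no length offset, no filter, only the compared groups, each library left out, and, added after the data were seen, number 2 left out. Scripts were tested on simulated data. Numbers were taken to pair libraries because r exceeded 0.1 in each of 18 same-number pairs (mean 0.608). This is a property of the data, since the labels do not say what a number marks. The mean of −0.286 over 36 other pairs adds no support, because subtracting group means makes it negative when same-number pairs correlate. Depth was 16294611 to 22974853 counts per library, and floors of 3 counts (0.131 to 0.184 CPM) cover counting error only. The intervals of the fold changes were built from the SE of DESeq2, which also includes the spread between libraries.

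The genes and lists were chosen with earlier results of these data known. All 10 genes were named with all values. Of other lists, genes called against ctrl-EVs (there were 0) and the 2 highest by TPM were to be named, and any further gene is an exception chosen for its role after its values were seen. One gene that this rule names is not reported here.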

Additional observations from a re-analysis of the deposited data

How the results depend on the processing

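Counts of genes of the set called against ctrl-EVs stayed at 0 of 9 under the replicate block, edgeR, no length offset, no filter, the compared groups alone and number 2 left out, and the block changed no other call. A gene to which DESeq2 gave no adjusted p counts as not called. The exception was 1 gene, Il4ra with miR-183-5p-EVs, without ctrl-EVs replicate 3 and with the replicate block (range 0 to 1 over the fits that leave out 1 library). The 108 pathway genes also gave 0 calls except in blocked fits without 1 library, where the range was 0 to 1 for miR-142-5p-EVs, 0 to 5 for miR-183-5p-EVs, 0 to 2 for miR-222-3p-EVs, 0 to 4 for all miR-EVs and 0 to 3 among the 4 groups. These calls came without ctrl-EVs replicate 1 (5 for miR-183-5p-EVs), 2 or 3, or miR-183-5p-EVs replicate 1. The fit that gave 5 called 209 of 13906 tested genes. By number, 6 to 8 genes of the set remained called; the call of Klf4 held only without miR-142-5p-EVs replicate 2 or 3.

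Il4ra with miR-183-5p-EVs or all miR-EVs and Irf4 in each comparison kept their direction in every fit run. Values near 0 changed sign, and the cause was not tested. Kdm6b with miR-142-5p-EVs (−0.01) became 0.0091 with the replicate block, 0.0012 in edgeR with it, 0.0657 and 0.0616 with no length offset without and with the block, and 0.0643 and 0.0574 without number 2. Jak1 with miR-222-3p-EVs became −0.0037 in edgeR and −0.0010 with the block there. Il13ra1 by number became −0.0127 in edgeR and −0.0094 with no filter. Without number 2, first without and then with the block, Il13ra1 and Klf4 with miR-142-5p-EVs became −0.0028 and −0.0037, and −0.1289 and −0.0823. Jak3 and Kdm6b with miR-183-5p-EVs became 0.0353 and 0.0428, and −0.0202 and −0.0211. Il4ra with miR-222-3p-EVs became 0.0551 and 0.0572, and Jak3 with all miR-EVs 0.0645 and 0.0772.

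When each library was left out in turn, with and without the block, further log2 values crossed 0. With miR-222-3p-EVs the range was −0.35 to 0.14 for Il4ra, −0.67 to 0.30 for Il2rg, −0.11 to 0.31 for Stat6, −0.0561 to 0.0509 for Jak1, −0.20 to 0.48 for Jak3, −0.63 to 0.0107 for Klf4 and −0.17 to 0.41 for Kdm6b. With miR-183-5p-EVs the range was −0.0033 to 0.10 for Il13ra1, −0.69 to 0.29 for Il2rg, −0.13 to 0.35 for Stat6, −0.0099 to 0.12 for Jak1, −0.41 to 0.24 for Jak3, −0.75 to 0.0774 for Klf4 and −0.36 to 0.42 for Kdm6b. With miR-142-5p-EVs the range was −0.0195 to 0.11 for Il13ra1, −0.74 to 0.30 for Il2rg, −0.0604 to 0.29 for Stat6, −0.0312 to 0.12 for Jak1, −0.44 to 0.33 for Jak3, −0.20 to 0.39 for Klf4 and −0.27 to 0.33 for Kdm6b. For all miR-EVs it was −0.46 to 0.29 for Il2rg, −0.0549 to 0.25 for Stat6, −0.0324 to 0.074 for Jak1, −0.30 to 0.35 for Jak3, −0.34 to 0.14 for Klf4 and −0.10 to 0.39 for Kdm6b, and by number −0.0351 to 0.05 for Il13ra1.

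With 3 libraries a group, the unblocked 95% intervals are wide, up to −1.27 to 0.90 for Il2rg with miR-183-5p-EVs, so a call missed here does not show that a gene was unchanged. Pparg and Klf4 are limited by depth.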

Other observations

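Readouts of classical (M1) activation, counted above among the 147 genes, were also expressed at low to moderate levels. Of 16 listed, 11 were tested and 0 were called against ctrl-EVs with or without the block. In the blocked DESeq2 fits an unadjusted p under 0.05 was reached by 4 of the 11 with all miR-EVs (10.6% of all genes) and by 3 with miR-183-5p-EVs (10.1%). It was reached by 1 with miR-142-5p-EVs and by 1 with miR-222-3p-EVs (6.53%). Their median blocked log2 fold change was −0.17 with all miR-EVs and −0.21 with miR-183-5p-EVs. Cd86, a costimulatory molecule, averaged 45.5 TPM, with a blocked log2 fold change of −0.20 ± 0.08 (DESeq2 adjusted p = 0.258). Ccl5, a chemokine, averaged 40.5 TPM, with −0.17 ± 0.14 (DESeq2 adjusted p = 0.643). By replicate number 9 of the 11 were called, with 7 lower and 2 higher in number 2, beside 69.4% of all tested genes called, and the summed level ranged from 163 to 300 TPM over the libraries.

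Il4 was listed at 3.06 to 6.52 TPM in a macrophage line. Markers of T and B cells summed to 2.43 to 5.23 TPM and those of mast cells and basophils, which are known sources of IL-4, to 0.448 to 1.05 TPM.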
